A study of Homo sapiens with 22 samples.

Results

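The 10 genes described here encode proteins that myeloid cells store in their cytoplasmic granules or carry in quantity in their cytoplasm. They are MPO, ELANE, PRTN3, AZU1, CTSG, LYZ, RNASE2, CEACAM6, S100A8 and S100A9, taken by symbol from 28063 gene symbols in each count table. Their reads were followed in 3 human acute myeloid leukaemia lines, MOLM-13, MV-4-11 and THP-1, all labelled WT for the marker field and grown in RPMI medium with serum. Each line was given 1 µM BRM014 for 24 h or for 72 h, or DMSO, the solvent. BRM014 blocks SMARCA4 and SMARCA2, the ATP-driven motors of SWI/SNF complexes, which move nucleosomes. Further THP-1 cells received 3 µM DB2313, a compound that keeps the factor PU.1 from DNA, for 72 h, or 10 nM PMA, a phorbol ester that drives these cells towards macrophages, for 48 h with 24 h of rest. This made 11 groups of 2 libraries, 22 in all, of polyadenylated RNA. MOLM-13, MV-4-11 and THP-1 are single established lines, so a difference between lines is a difference between these cultures. The labels do not say whether the DMSO cells were kept for 24 or 72 h, so 1 DMSO group per line served both times, and the changes may include time in culture. Nor do they say whether the DB2313 libraries were made alongside the others. Nothing states that the 2 libraries of a group came from separate cultures, so the p-values reflect how these libraries scatter, and that scatter may be technical alone. The libraries held 15893489 to 21565666 reads in genes (median 18853905).

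Neutrophil granules form in a fixed order during maturation. Promyelocytes make the primary (azurophil) granules, which hold myeloperoxidase and a family of related serine proteases, and later stages add other proteins to specific and tertiary granules. Genes of primary granules are therefore used as markers of early granulocytic and myeloblastic cells. Lysozyme and the calcium-binding pair S100A8 and S100A9 are made in quantity by monocytes as well as neutrophils. PU.1, C/EBP factors, RUNX1, MYB and GFI1 are known to act on promoters or enhancers of these genes.

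Levels are given as CPM, the count of a gene scaled to the library's total reads in genes, with 1 value per library. Changes are log2 fold changes ± standard error (SE) from a fit across all 22 libraries (edgeR's quasi-likelihood test). A gene is called, and is said to have risen or fallen, where the p-value adjusted by Benjamini-Hochberg over the 16794 genes tested was under 0.05. All 10 genes passed the filter on low counts. CEACAM6 had no read in any MOLM-13 library, so it has no fold change there or in the mean of the 3 lines, and 9 genes were compared in those cases. Since RNA was taken from whole cultures, fewer cells that make a transcript and less transcript per cell cannot be told apart.

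The granule genes did not move as a block. With BRM014 they fell more often than they rose in MV-4-11 and THP-1 cells, and rose more often than they fell in MOLM-13 cells at 72 h. At 24 h, 7 of 10 fell and 0 rose in MV-4-11 cells, where 22.4% of all genes fell and 23.6% rose. In THP-1 cells 6 of 10 fell and 0 rose at 24 h, against 24.1% and 25.9% of all genes. In MOLM-13 cells 3 of 9 fell and 3 rose at 24 h, against 23.5% and 22.7% of all genes. At 72 h, 3 of 9 fell and 6 rose in MOLM-13 cells, where 29.4% of all genes fell and 30.3% rose. MV-4-11 cells had 7 of 10 lower and 0 higher at 72 h, against 26.1% and 28.4% of all genes. THP-1 cells had 5 of 10 lower and 1 higher at 72 h, against 28% and 30.9% of all genes. The median log2 fold change of the granule genes at 72 h was 1.58 in MOLM-13, -1.21 in MV-4-11 and -0.91 in THP-1 cells, beside 0.00, 0.00 and 0.06 over all genes tested.

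**Figure D1:**
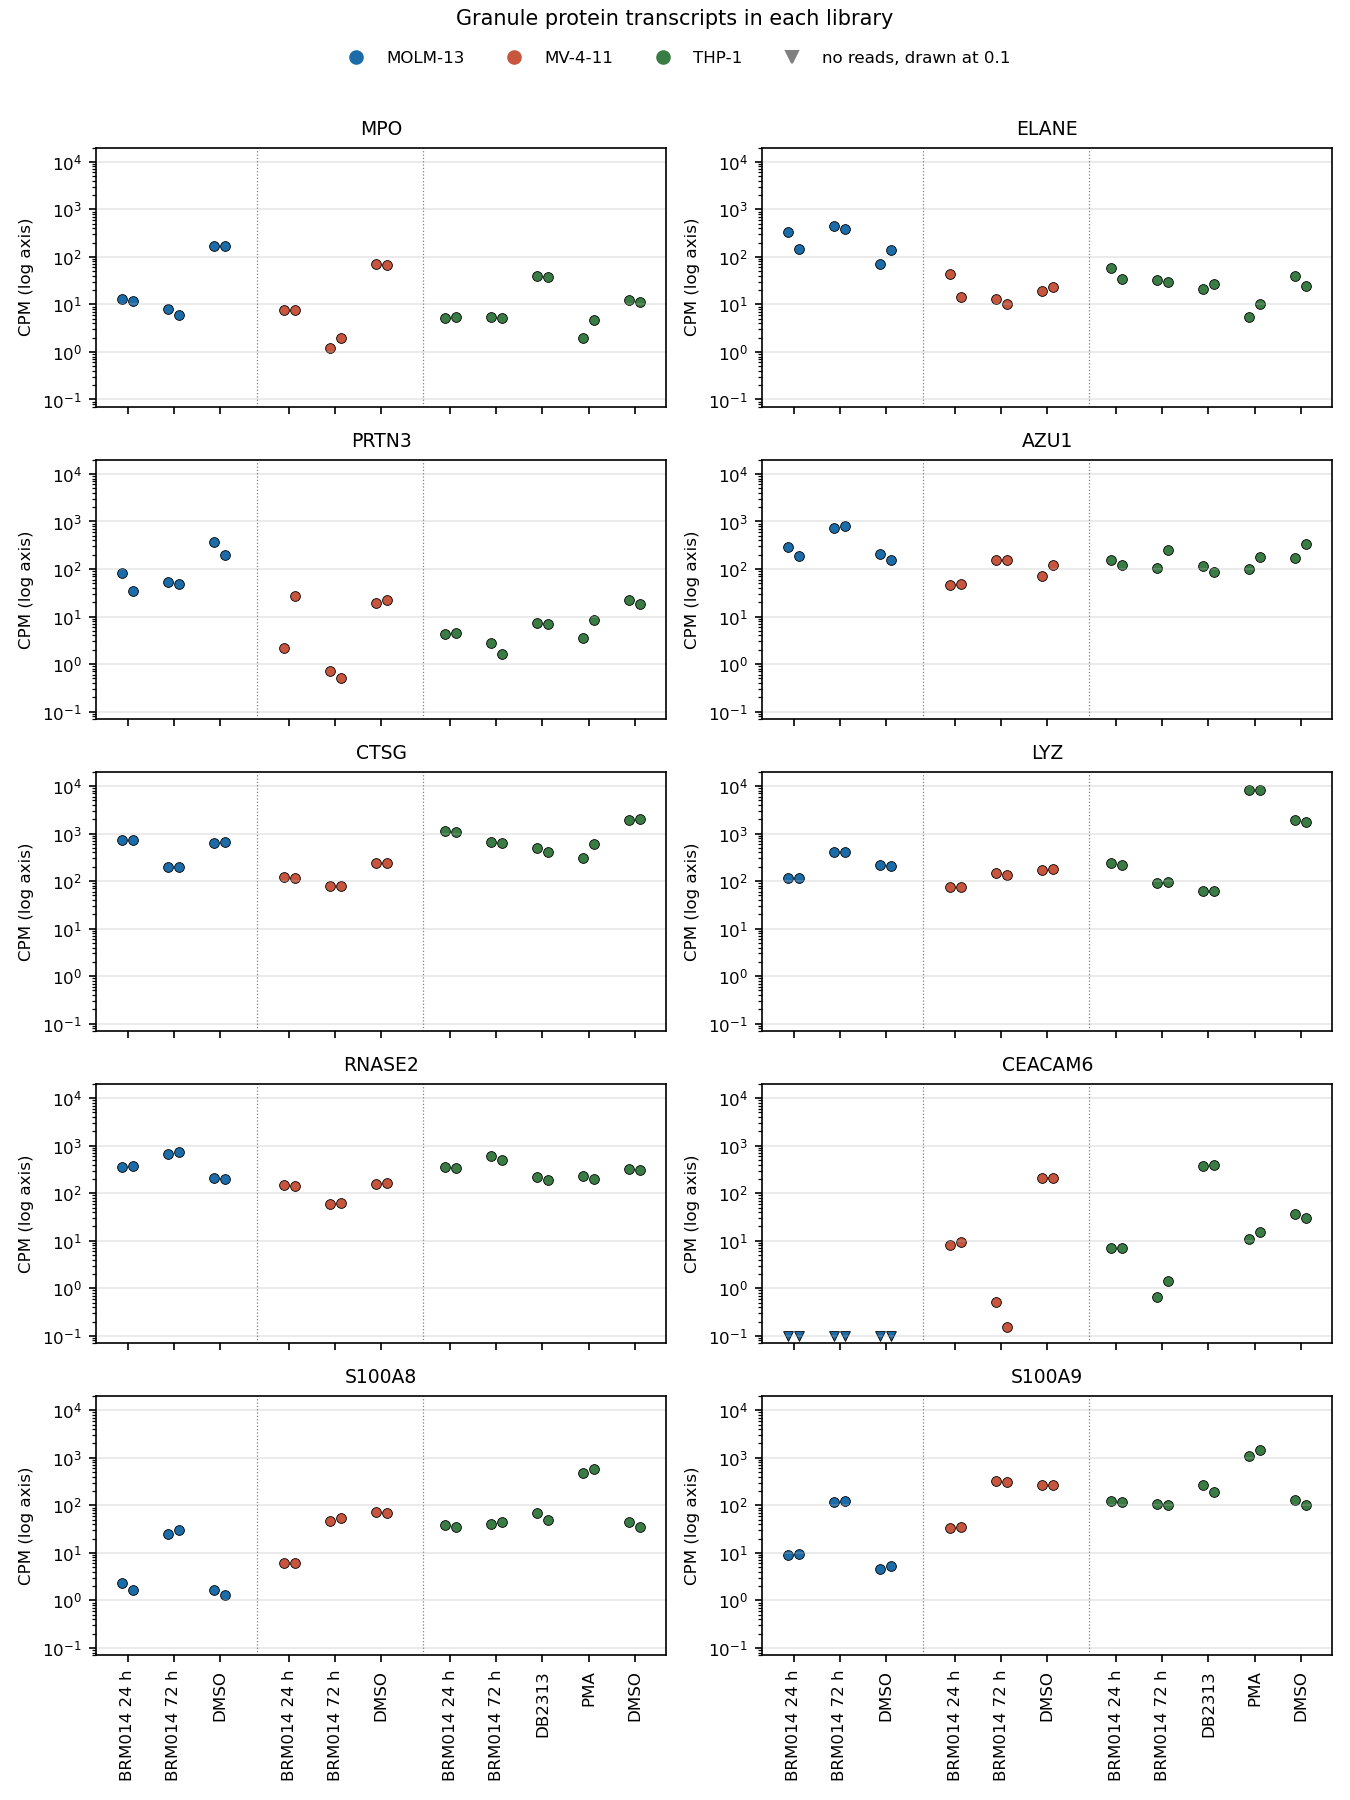
CPM on a log axis of the 10 granule genes in each of the 22 libraries, 1 point per library, with the groups of each line side by side and DMSO at the right of each block. MPO fell to 8.10 and 5.96 CPM in MOLM-13 cells after 72 h of BRM014, against 167 and 168 in DMSO cells, while LYZ reached 8300.5 and 8432 CPM in THP-1 cells given PMA.

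The lines differed in which granule genes they made before treatment. Per kilobase of exon, so that genes can be compared, the highest mean level in DMSO-treated MOLM-13 cells was that of CTSG, at 469 CPM per kilobase, followed by RNASE2 at 274 and PRTN3 at 246. In MV-4-11 cells S100A9 led at 469.5 CPM per kilobase, before RNASE2 at 212 and CTSG at 178. In THP-1 cells CTSG stood at 1438 and LYZ at 1046 CPM per kilobase, and MPO was the lowest of the 10 genes at 3.37. MPO averaged 47.4 CPM per kilobase in MOLM-13 cells and 19.9 in MV-4-11 cells. The 3 lines differed in DMSO level in all 10 genes (F test), where 78.9% of all genes did. That of AZU1 (adjusted p = 0.00588) had the weakest support and was not called without MV-4-11 DMSO replicate 1 (adjusted p = 0.103). Across the 11 groups, neighbouring groups in the order of a gene's level overlapped in 1 of 10 steps for LYZ, 2 for CTSG, RNASE2 and CEACAM6, 3 for MPO and S100A9, 4 for S100A8, 6 for ELANE and PRTN3 and 7 for AZU1. The groups were ordered by their own means, which favours separation, and the share of such steps over all genes was not counted. Together the 10 genes took 0.0484% to 1.15% of the reads in genes.

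MPO, on chromosome 17 (chr17:58269856-58280935, minus strand, GENCODE v29 on GRCh38), encodes myeloperoxidase, the haem enzyme of primary granules that makes hypochlorous acid. It fell with BRM014 in all 3 lines at both times. MOLM-13 cells held 13.2 and 11.7 CPM at 24 h and 8.10 and 5.96 CPM at 72 h, against 167 and 168 CPM in DMSO. MV-4-11 cells held 7.46 and 7.65 CPM at 24 h and 1.22 and 1.92 CPM at 72 h, against 71.6 and 68.4 CPM in DMSO. THP-1 cells, which began low, held 5.18 and 5.33 CPM at 24 h and 5.47 and 5.27 CPM at 72 h, against 12.6 and 11.2 CPM in DMSO. In each line every BRM014 library lay below both DMSO libraries. The log2 fold changes at 72 h were -4.76 ± 0.20 in MOLM-13 (adjusted p = 2.91e-14), -5.51 ± 0.24 in MV-4-11 (adjusted p = 9.58e-14) and -1.22 ± 0.22 in THP-1 cells (adjusted p = 6.09e-05). The effect differed between lines at 24 h (adjusted p = 9.15e-07) and at 72 h (adjusted p = 2.59e-09). Over all 11 groups the highest level was that of DMSO-treated MOLM-13 cells and the lowest that of MV-4-11 cells at 72 h of BRM014. With the groups in order of mean level, the libraries of neighbouring groups did not overlap in 7 of the 10 steps. This order favours separation, and the share of such steps over all genes was not counted.

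LPO, the gene of lactoperoxidase, lies 1338 bases from MPO on the other strand. It was scarce, with 0.458 ± 0.121 CPM in MOLM-13 cells at 72 h of BRM014 against 9.32 ± 0.609 CPM in DMSO (SD, n = 2 each). LPO fell at 72 h in MOLM-13 (-4.51 ± 0.49, adjusted p = 7.86e-08), MV-4-11 (-1.98 ± 0.71, adjusted p = 0.0229) and THP-1 cells (-1.76 ± 0.44, adjusted p = 0.00182). EPX, the eosinophil peroxidase gene 64682 bases from MPO, fell at 72 h in MV-4-11 cells (-3.92 ± 0.53, adjusted p = 2.34e-06) and was not called in MOLM-13 (-0.02 ± 0.48) or THP-1 cells (1.51 ± 0.83).

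AZU1, PRTN3 and ELANE lie side by side on the plus strand of chromosome 19, at chr19:825097-832018, chr19:840960-848175 and chr19:851014-856247 (GENCODE v29 on GRCh38). ELANE encodes neutrophil elastase and PRTN3 encodes proteinase 3, a close relative and the target of autoantibodies in vasculitis. AZU1 encodes azurocidin, a relative that has lost protease activity and kills bacteria. Though PRTN3 ends 2839 bases before ELANE begins, the 3 genes moved in different directions.

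PRTN3 fell at 72 h in all 3 lines. MOLM-13 cells held 81.9 and 35.0 CPM at 24 h and 53.2 and 49.2 CPM at 72 h, against 364 and 199 CPM in DMSO. MV-4-11 cells held 2.22 and 26.9 CPM at 24 h and 0.698 and 0.519 CPM at 72 h, against 19.1 and 22.4 CPM in DMSO. THP-1 cells held 4.23 and 4.45 CPM at 24 h and 2.71 and 1.59 CPM at 72 h, against 22.2 and 18.4 CPM in DMSO. At 72 h no BRM014 library of any line reached its DMSO libraries. At 24 h the MV-4-11 libraries stood on either side of DMSO, with 41 reads in replicate 1 and 566 in replicate 2. The log2 fold changes at 72 h were -2.65 ± 0.50 in MOLM-13 (adjusted p = 0.000117), -5.15 ± 0.94 in MV-4-11 (adjusted p = 8.46e-05) and -3.30 ± 0.75 in THP-1 cells (adjusted p = 0.000856). At 24 h PRTN3 fell in MOLM-13 (-2.39 ± 0.50, adjusted p = 0.000488) and THP-1 cells (-2.26 ± 0.65, adjusted p = 0.00691), and was -0.56 ± 0.56 in MV-4-11 cells (adjusted p = 0.455). Without MV-4-11 BRM014 24 h replicate 2 that last value was -3.30 and was called (adjusted p = 0.000166), and without replicate 1 it was 0.30. In MOLM-13 cells the 24 h value was -3.14 without BRM014 24 h replicate 1.

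ELANE rose in MOLM-13 cells. These held 339.8 and 144 CPM at 24 h and 443 and 387 CPM at 72 h, against 69.9 and 143 CPM in DMSO, so that the 72 h libraries stood well above DMSO and the lower 24 h library barely. The log2 fold change was 1.06 ± 0.40 at 24 h (adjusted p = 0.0376) and 1.77 ± 0.41 at 72 h (adjusted p = 0.000806). The call at 24 h was lost without BRM014 24 h replicate 1 (0.30, adjusted p = 0.664) or DMSO replicate 1 (0.62, adjusted p = 0.336), with DESeq2 (adjusted p = 0.11) and with a replicate block (adjusted p = 0.0663). Without DMSO replicate 2 the values were 1.68 at 24 h and 2.39 at 72 h, both called. MV-4-11 cells held 44.2 and 14.5 CPM at 24 h and 12.9 and 10.1 CPM at 72 h, against 19.3 and 23.2 CPM in DMSO. THP-1 cells held 57.6 and 33.9 CPM at 24 h and 32.9 and 28.9 CPM at 72 h, against 39.7 and 24.6 CPM in DMSO. ELANE was called at neither time in these 2 lines, where its log2 fold changes ran from -0.96 ± 0.51 (MV-4-11, 72 h, adjusted p = 0.121) to 0.47 ± 0.44 (THP-1, 24 h, adjusted p = 0.394). A fit of MV-4-11 libraries alone called it lower at 72 h (-0.99, adjusted p = 0.0424). At 72 h the effect differed between the lines (adjusted p = 0.00305).

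AZU1 rose in MOLM-13 cells at 72 h and was lower in the other lines at 24 h. MOLM-13 cells held 290.2 and 184 CPM at 24 h and 734 and 791 CPM at 72 h, against 209 and 156 CPM in DMSO. MV-4-11 cells held 46.5 and 48.8 CPM at 24 h and 155 and 152 CPM at 72 h, against 72.8 and 119.9 CPM in DMSO. THP-1 cells held 154 and 121 CPM at 24 h and 105 and 253 CPM at 72 h, against 169 and 341 CPM in DMSO. AZU1 rose at 72 h in MOLM-13 cells (1.87 ± 0.36, adjusted p = 0.000151), where both libraries stood above DMSO. It fell at 24 h in MV-4-11 (-1.09 ± 0.38, adjusted p = 0.0226) and THP-1 cells (-0.95 ± 0.36, adjusted p = 0.0347), and at 72 h was called in neither (0.61 ± 0.36 in MV-4-11 and -0.60 ± 0.36 in THP-1 cells), though a fit of MV-4-11 libraries alone called it higher there (0.57, adjusted p = 0.00902). The MV-4-11 call at 24 h was lost without BRM014 24 h replicate 1 (-1.06, adjusted p = 0.0965), BRM014 24 h replicate 2 (-1.13, adjusted p = 0.0804) or DMSO replicate 2 (-0.67, adjusted p = 0.268). The THP-1 call at 24 h was lost without BRM014 24 h replicate 1 (-1.14, adjusted p = 0.0571), BRM014 24 h replicate 2 (-0.77, adjusted p = 0.194) or DMSO replicate 2 (-0.34, adjusted p = 0.543), and with DESeq2 (adjusted p = 0.0702). In THP-1 cells at 72 h AZU1 was called lower without BRM014 72 h replicate 2 (-1.36, adjusted p = 0.00816) or DMSO replicate 1 (-1.02, adjusted p = 0.0336), and was 0.00 without DMSO replicate 2.

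CFD, which encodes complement factor D, another relative of the granule proteases, begins 3396 bases after ELANE ends. It rose at 72 h in all 3 lines, by 3.70 ± 0.43 in MOLM-13 (adjusted p = 1.99e-07), 2.20 ± 0.45 in MV-4-11 (adjusted p = 0.000321) and 3.22 ± 0.53 in THP-1 cells (adjusted p = 2.65e-05). Its level was 186 ± 0.0576 CPM in MOLM-13 cells at 72 h, against 12.5 ± 2.19 CPM in DMSO (SD, n = 2 each). PTBP1, an RNA-binding protein gene upstream of AZU1, fell at 72 h in all 3 lines, with log2 fold changes from -0.78 ± 0.06 (MOLM-13) to -0.19 ± 0.06 (MV-4-11). MED16, a Mediator subunit gene 11383 bases beyond ELANE, rose at 72 h in all 3 lines, from 0.55 ± 0.13 (THP-1) to 1.16 ± 0.13 (MOLM-13).

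**Figure D2:**
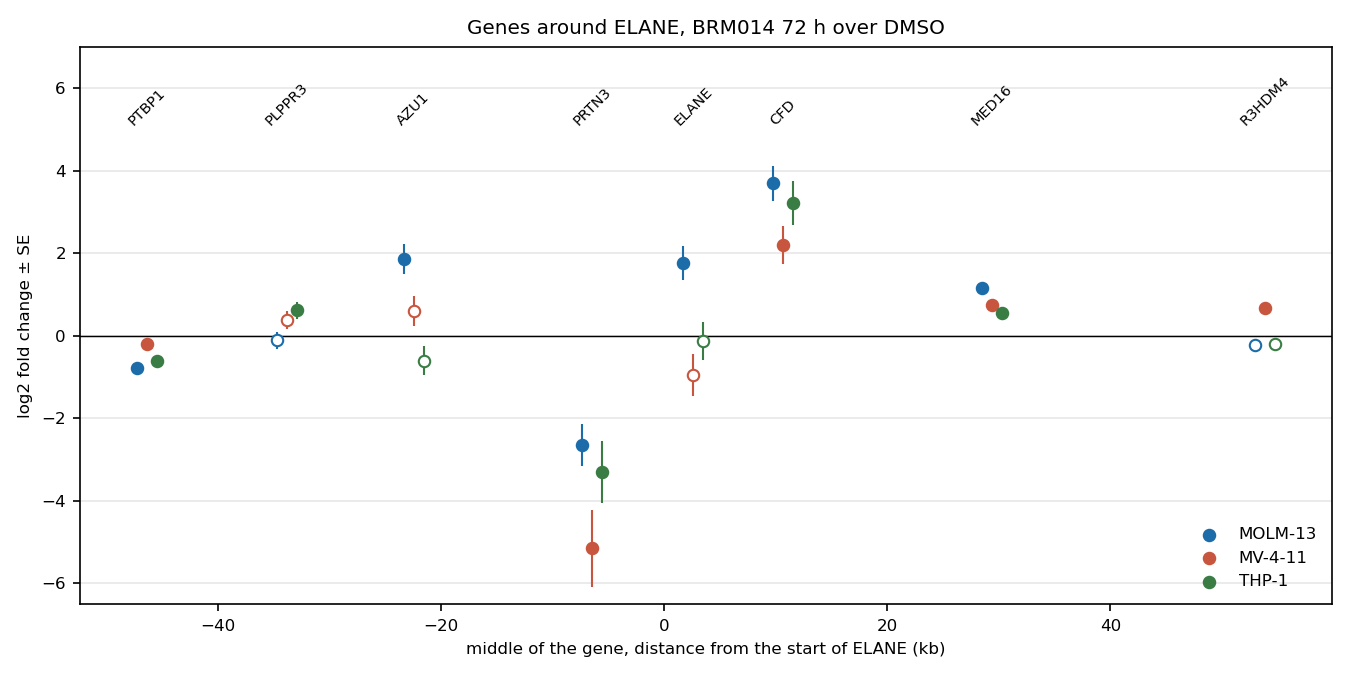
Log2 fold change ± SE at 72 h of BRM014 over DMSO of genes around ELANE, plotted by the distance of the middle of each gene from the start of ELANE in kilobases, 1 colour per line, with filled points called and open points not called. PRTN3 fell in all 3 lines (-2.65 in MOLM-13, -5.15 in MV-4-11, -3.30 in THP-1) while CFD rose in all 3 (3.70 in MOLM-13, 2.20 in MV-4-11, 3.22 in THP-1).

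The 250 bases before the RefSeq start of PRTN3 and of AZU1 are shown because these neighbours moved apart, and those of CTSG because it fell in all 3 lines. Capitals mark matches, on either strand, to short motifs of factors known at granule genes, namely GAGGAA for PU.1, TTNNGNAA for C/EBP factors, TAACNG for MYB and TGTGGT for RUNX factors. The sequences are from RefSeq's promoter table on GRCh38.p14, at chr19:840749-840998 (plus strand), chr19:827587-827836 (plus) and chr14:24576251-24576500 (minus), and read 5′ to 3′ along the gene. The table held a promoter for 7 of the 10 genes, and MPO, ELANE and LYZ were not among them.
PRTN3: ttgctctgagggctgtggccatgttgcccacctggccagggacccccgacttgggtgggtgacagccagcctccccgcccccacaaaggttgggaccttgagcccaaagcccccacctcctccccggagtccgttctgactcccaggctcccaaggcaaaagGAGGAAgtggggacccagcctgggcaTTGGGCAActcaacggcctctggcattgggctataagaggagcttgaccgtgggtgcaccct
AZU1: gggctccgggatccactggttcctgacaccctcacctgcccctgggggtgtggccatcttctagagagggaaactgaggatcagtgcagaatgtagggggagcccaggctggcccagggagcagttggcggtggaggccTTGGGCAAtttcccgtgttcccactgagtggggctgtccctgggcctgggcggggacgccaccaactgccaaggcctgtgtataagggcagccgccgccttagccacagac
CTSG: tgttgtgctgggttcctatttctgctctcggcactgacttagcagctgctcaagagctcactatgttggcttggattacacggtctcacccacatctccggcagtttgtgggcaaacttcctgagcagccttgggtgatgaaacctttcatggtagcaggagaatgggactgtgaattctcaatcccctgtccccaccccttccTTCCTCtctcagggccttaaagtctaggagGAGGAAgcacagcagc
PRTN3 had a PU.1 match beginning 88 bases before the start and a C/EBP match 62 bases before it. AZU1 had a C/EBP match with the same 8 letters, 111 bases before its start, and no PU.1 match. CTSG had PU.1 matches 46 bases (opposite strand) and 16 bases before its start. Of 35116 promoters in the table, cut to the same length, 23.6% held the PU.1 motif and 33.2% the C/EBP motif, so such matches are common and are only a description. The AZU1 start used here lies inside the longer AZU1 gene of GENCODE v29, and no motif match shows that a factor binds.

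CTSG, at chr14:24573522-24576260 on the minus strand (GENCODE v29 on GRCh38), encodes cathepsin G, a serine protease of primary granules. It fell in all 3 lines at 72 h. MOLM-13 cells held 736 and 744 CPM at 24 h and 196 and 197 CPM at 72 h, against 627 and 662 CPM in DMSO. MV-4-11 cells held 124 and 117 CPM at 24 h and 77.1 and 79.6 CPM at 72 h, against 245 and 243 CPM in DMSO. THP-1 cells held 1122 and 1069 CPM at 24 h and 668 and 643 CPM at 72 h, against 1904 and 2047 CPM in DMSO. Every 72 h library lay below its DMSO libraries, and at 24 h this held in MV-4-11 and THP-1 but not in MOLM-13 cells, whose 24 h libraries were above DMSO. At 72 h the log2 fold changes were -1.91 ± 0.18 in MOLM-13 (adjusted p = 1.5e-08), -1.70 ± 0.19 in MV-4-11 (adjusted p = 1.4e-07) and -1.68 ± 0.18 in THP-1 cells (adjusted p = 1.1e-07). A difference between the lines was not called at 72 h (adjusted p = 0.702) and was called at 24 h (adjusted p = 0.00176), when MOLM-13 cells showed 0.07 ± 0.18 (adjusted p = 0.81), MV-4-11 cells -1.09 ± 0.18 (adjusted p = 5.02e-05) and THP-1 cells -0.90 ± 0.18 (adjusted p = 0.000275).

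LYZ, at chr12:69348341-69354234 on the plus strand, encodes lysozyme, which cleaves bacterial cell walls. It overlaps an annotated RNA gene, AC020656.1, on the other strand, and the strand setting of the counting is not given, so reads of the 2 genes may not be separated. LYZ fell far in THP-1 cells. These held 237 and 221 CPM at 24 h and 91.9 and 96.3 CPM at 72 h, against 1934 and 1755 CPM in DMSO. MOLM-13 cells held 115 and 115 CPM at 24 h and 413 and 403 CPM at 72 h, against 223 and 203 CPM in DMSO, and so lay below DMSO at 24 h and above it at 72 h. MV-4-11 cells held 74.2 and 76.5 CPM at 24 h and 145 and 133 CPM at 72 h, against 173 and 179 CPM in DMSO. The log2 fold changes at 24 h were -1.02 ± 0.07 in MOLM-13 (adjusted p = 2.2e-10), -1.30 ± 0.07 in MV-4-11 (adjusted p = 8.06e-12) and -3.06 ± 0.07 in THP-1 cells (adjusted p = 5.01e-17). At 72 h LYZ showed 0.74 ± 0.07 in MOLM-13 (adjusted p = 6.17e-09), -0.40 ± 0.07 in MV-4-11 (adjusted p = 4.63e-05) and -4.38 ± 0.08 in THP-1 cells (adjusted p = 7.34e-19). The effect differed between lines at 24 h (adjusted p = 5.25e-12) and still at 72 h (adjusted p = 1.62e-17).

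RNASE2, at chr14:20955452-20956436 on the plus strand, encodes the eosinophil-derived neurotoxin, an antiviral ribonuclease found in eosinophil granules and also in neutrophils and monocytes. Its sequence is close to that of RNASE3, so the counting may have lost or moved some reads. RNASE2 rose in MOLM-13 cells, which held 363 and 366 CPM at 24 h and 661 and 751 CPM at 72 h, against 214 and 200.1 CPM in DMSO. In MV-4-11 cells it was 149 and 142 CPM at 24 h and 58.1 and 62.5 CPM at 72 h, against 158 and 161 CPM in DMSO. In THP-1 cells it was 352 and 342 CPM at 24 h and 603 and 503 CPM at 72 h, against 319 and 301 CPM in DMSO. The 72 h libraries lay above DMSO in MOLM-13 and THP-1 cells and below it in MV-4-11 cells. The log2 fold changes at 72 h were 1.58 ± 0.09 in MOLM-13 (adjusted p = 9.77e-12), -1.46 ± 0.10 in MV-4-11 (adjusted p = 8.47e-11) and 0.75 ± 0.09 in THP-1 cells (adjusted p = 7.38e-07), and they differed between lines (adjusted p = 1.87e-12). At 24 h RNASE2 rose in MOLM-13 cells (0.69 ± 0.09, adjusted p = 3.59e-06) and was called neither in THP-1 (0.12 ± 0.09, adjusted p = 0.315) nor in MV-4-11 cells (-0.21 ± 0.09, adjusted p = 0.0822). Most other settings called it lower in MV-4-11 cells at 24 h. These were DESeq2 (adjusted p = 0.0335), RLE scaling (adjusted p = 0.0419), no filter on low counts (adjusted p = 0.0297), a fit without the PMA and DB2313 groups (adjusted p = 0.0118) and a fit of MV-4-11 libraries alone (adjusted p = 0.00336). Library size alone and a replicate block did not. RNASE3, the gene of eosinophil cationic protein, 63104 bases away, fell at 72 h in all 3 lines, by -2.52 ± 0.18 in MOLM-13 (adjusted p = 1.48e-10), -4.19 ± 0.21 in MV-4-11 (adjusted p = 1.29e-12) and -0.91 ± 0.18 in THP-1 cells (adjusted p = 0.000213). Summed CPM of 9 markers of eosinophils and basophils, of which RNASE3 is one, was 4.77 to 6.07 in MV-4-11 cells at 72 h against 222 to 233 in DMSO, and 18.6 to 19.8 in MOLM-13 cells at 72 h against 125 to 134 in DMSO. CLC and CPA3 had no reads in those 72 h libraries, and the part of these cells' markers in the RNASE2 values was not tested.

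CEACAM6, at chr19:41750977-41772208 on the plus strand, encodes a cell adhesion protein anchored in the membrane, which neutrophils keep in primary granules. It overlaps AC243967.1 on its own strand and AC243967.2 on the other, so its reads may be shared, and family members of like sequence may also take some. MV-4-11 cells held 8.27 and 9.26 CPM at 24 h, and 0.524 and 0.156 CPM at 72 h, which are 9 and 3 reads, against 205 and 209 CPM in DMSO. THP-1 cells held 6.95 and 7.14 CPM at 24 h and 0.663 and 1.41 CPM at 72 h, against 36.0 and 29.4 CPM in DMSO. The groups did not overlap at either time. MOLM-13 libraries had 0 reads in every group, which allows up to 0.148 to 0.189 CPM in a single MOLM-13 library (3 counts, counting error only). The log2 fold changes were -4.63 ± 0.17 at 24 h (adjusted p = 6.84e-13) and -9.32 ± 0.26 at 72 h (adjusted p = 8.71e-15) in MV-4-11 cells. They were -2.25 ± 0.17 at 24 h (adjusted p = 1.01e-08) and -5.07 ± 0.25 at 72 h (adjusted p = 1.29e-11) in THP-1 cells. With so few reads left at 72 h the size of the fall rests on single libraries. It was -10.38 without MV-4-11 BRM014 72 h replicate 1, -8.67 without replicate 2, and -5.69 in THP-1 cells without BRM014 72 h replicate 2, all called.

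S100A8 and S100A9, on chromosome 1 at chr1:153390032-153391188 (minus strand) and chr1:153357854-153361027 (plus strand), encode the 2 subunits of calprotectin, which binds zinc and manganese away from microbes and activates TLR4. The genes lie 29005 bases apart. Their promoters are shown because they had the most alike patterns of any pair among the 10 genes, with Pearson's r of 0.98 between their mean log2 CPM over the 11 groups. The sequences, again the 250 bases before a RefSeq start with the same motifs in capitals, are at chr1:153391189-153391438 (minus strand, the first of 3 starts of S100A8) and chr1:153357604-153357853 (plus strand).
S100A8: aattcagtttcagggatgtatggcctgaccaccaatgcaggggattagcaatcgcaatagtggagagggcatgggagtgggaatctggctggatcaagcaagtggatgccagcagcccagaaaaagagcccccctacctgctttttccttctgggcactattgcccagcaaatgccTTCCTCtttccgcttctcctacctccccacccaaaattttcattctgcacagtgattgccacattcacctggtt
S100A9: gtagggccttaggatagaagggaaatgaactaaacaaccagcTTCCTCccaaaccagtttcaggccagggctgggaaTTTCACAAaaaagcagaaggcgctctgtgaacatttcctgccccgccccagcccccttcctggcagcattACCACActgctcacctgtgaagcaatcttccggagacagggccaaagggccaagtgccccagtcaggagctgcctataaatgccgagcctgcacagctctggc
Both held a PU.1 match on the opposite strand, 74 bases before the start of S100A8 and 208 bases before that of S100A9. S100A9 also held a C/EBP match 173 bases and a RUNX match 103 bases before its start, a motif present in 11.0% of the promoters. The MYB motif, present in 17.6% of them, was in neither of these windows. Before the other 2 starts of S100A8, not shown, lay C/EBP matches 117 bases from one start and 214 and 78 bases from the other, a MYB match 36 bases from the one and 133 bases from the other, and a PU.1 match 189 bases from the one.

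Both genes, scarce in MOLM-13 cells given DMSO, rose there at 72 h. S100A9 stood at 8.998 and 9.59 CPM at 24 h and 115 and 122 CPM at 72 h, against 4.56 and 5.29 CPM in DMSO. S100A8 stood at 2.30 and 1.64 CPM at 24 h and 25.4 and 30.1 CPM at 72 h, against 1.66 and 1.32 CPM in DMSO. The 72 h libraries lay far above DMSO for both genes, with log2 fold changes of 4.40 ± 0.18 for S100A9 (adjusted p = 4.04e-14) and 4.02 ± 0.24 for S100A8 (adjusted p = 1.16e-11). At 24 h S100A9 rose by 0.79 ± 0.22 (adjusted p = 0.00639), a call lost without DMSO replicate 1 (0.67, adjusted p = 0.0715), and S100A8 was not called (0.27 ± 0.38, adjusted p = 0.621).

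In MV-4-11 cells both genes fell at 24 h and stood near DMSO at 72 h. S100A9 was at 33.9 and 35.3 CPM at 24 h and 325 and 317 CPM at 72 h, against 269.7 and 272 CPM in DMSO. S100A8 was at 5.9995 and 6.13 CPM at 24 h and 47.4 and 53.3 CPM at 72 h, against 72.4 and 68.0 CPM in DMSO. Thus every 24 h library lay below every 72 h and DMSO library. At 24 h the log2 fold changes were -3.04 ± 0.15 for S100A9 (adjusted p = 1.6e-12) and -3.60 ± 0.18 for S100A8 (adjusted p = 1.96e-12). At 72 h S100A9 was not called (0.19 ± 0.13, adjusted p = 0.257), though it was higher in a fit of MV-4-11 libraries alone (0.15, adjusted p = 0.00946), and S100A8 was lower by a small amount (-0.54 ± 0.14, adjusted p = 0.00324). THP-1 cells showed neither change. There S100A9 stood at 124 and 116 CPM at 24 h and 108 and 99.6 CPM at 72 h, against 127 and 103 CPM in DMSO, and S100A8 at 39.2 and 35.1 CPM at 24 h and 39.7 and 44.2 CPM at 72 h, against 44.5 and 34.9 CPM in DMSO. Each BRM014 group overlapped DMSO, with only the 72 h S100A9 library at 99.6 CPM outside the DMSO range. The 24 h libraries of S100A9 lay above its 72 h libraries. Neither gene was called against DMSO at either time in THP-1 cells (adjusted p of 0.163 or more). S100A9 at 72 h was called lower without the PMA and DB2313 groups (-0.27, adjusted p = 0.00457) and with no filter on low counts (-0.25, adjusted p = 0.0117). The effect differed between lines at 24 h for S100A8 (adjusted p = 1.24e-09) and S100A9 (adjusted p = 1.76e-10), as it did at 72 h for S100A8 (adjusted p = 2.91e-10) and S100A9 (adjusted p = 5.47e-12).

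Markers of monocytes and macrophages moved too. The summed CPM of 8 of them was 326 to 329.6 at 24 h and 993 to 1043 at 72 h in MOLM-13 cells, against 127 to 128 in DMSO, with MRC1 and MSR1 among those without reads at 72 h. In MV-4-11 cells it was 302 to 302.1 at 24 h and 684 to 688 at 72 h, against 207 to 209.8 in DMSO, without MSR1 reads at 72 h. At 72 h 3 of the 8 rose and 2 fell in each of these 2 lines. Of all genes 30.3% rose and 29.4% fell in MOLM-13 cells, and 28.4% and 26.1% in MV-4-11 cells. In THP-1 cells, where neither S100 gene was called, the sum was 555 to 567 at 24 h and 754 to 797 at 72 h, against 559 to 567 in DMSO, with 3 of the 8 higher and 3 lower at 72 h and FCN1, MRC1 and MSR1 without reads. Of all genes 30.9% rose and 28% fell in THP-1 cells at 72 h. The part of the monocyte and macrophage markers in the S100 values was not tested. Of 5 receptors known for S100A8 and S100A9, 5 rose in MOLM-13 cells at 72 h. In MV-4-11 cells 3 rose and 1 fell, and in THP-1 cells 2 rose and 2 fell. The 72 h shares of all genes given above apply to these counts too. TLR4 fell at 72 h in MV-4-11 (-4.43, adjusted p = 6.4e-12) and THP-1 cells (-1.79, adjusted p = 1e-07) and rose in MOLM-13 cells (0.79, adjusted p = 0.00109), and CD36 rose in all 3 lines (2.36 in MOLM-13, 3.16 in MV-4-11 and 1.77 in THP-1 cells).

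**Figure D3:**
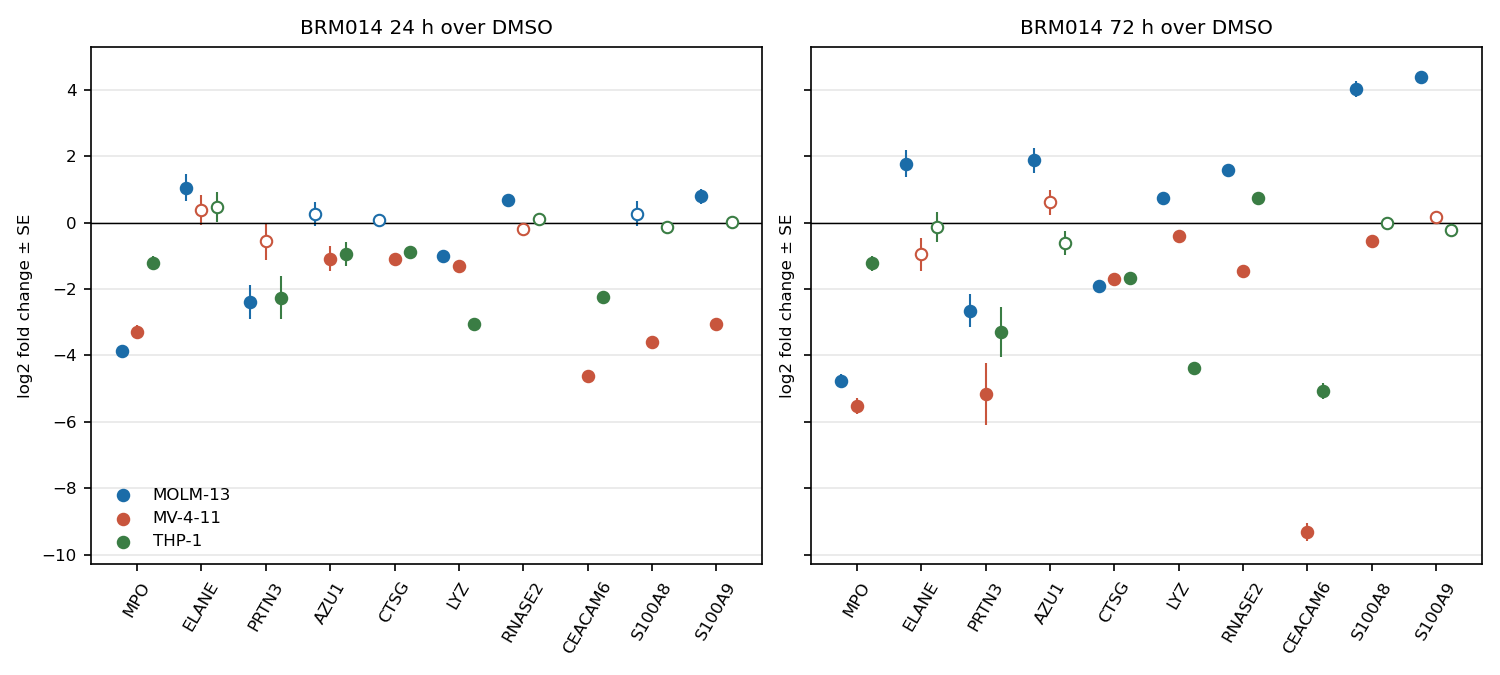
Log2 fold change ± SE of each granule gene for BRM014 over DMSO at 24 h (left) and 72 h (right), 1 colour per line, with filled points called and open points not called, and no point where CEACAM6 had no reads. At 72 h MPO, PRTN3 and CTSG lay below 0 in all 3 lines, while S100A8 (4.02) and S100A9 (4.40) were high in MOLM-13 cells.

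Between 24 and 72 h of BRM014 the genes separated further. In MOLM-13 cells 5 of 9 were higher and 2 lower at 72 h than at 24 h, where 20.8% and 22.7% of all genes were. S100A8 (3.75 ± 0.23) and S100A9 (3.61 ± 0.17) rose most, followed by LYZ (1.76 ± 0.07) and AZU1 (1.62 ± 0.36), and CTSG (-1.98 ± 0.18) and MPO (-0.88 ± 0.21) fell. ELANE was not called there (0.71 ± 0.39, adjusted p = 0.158), but was without BRM014 24 h replicate 1 (1.47, adjusted p = 0.018). In MV-4-11 cells 4 were higher and 6 lower, against 18.6% and 16.9% of all genes. There S100A9 (3.22 ± 0.15), S100A8 (3.06 ± 0.18), AZU1 (1.70 ± 0.38) and LYZ (0.90 ± 0.07) rose while CEACAM6 (-4.69 ± 0.36), PRTN3 (-4.59 ± 0.97) and MPO (-2.23 ± 0.27) fell. Of the smaller falls in MV-4-11 cells, CTSG (-0.61 ± 0.19, adjusted p = 0.0136) was not called without BRM014 24 h replicate 1 (-0.57), 72 h replicate 1 (-0.60) or 72 h replicate 2 (-0.64). ELANE (-1.34 ± 0.50, adjusted p = 0.0413) was not called without BRM014 24 h replicate 1 (-0.34), 72 h replicate 1 (-1.53) or 72 h replicate 2 (-1.17), nor with a replicate block (-1.25, adjusted p = 0.0682), and was -1.94 without 24 h replicate 2. PRTN3 was -1.86 and not called without BRM014 24 h replicate 2, and -5.45 without replicate 1. In THP-1 cells 1 of 10 was higher and 3 lower at 72 h than at 24 h, against 16.2% and 16.5% of all genes. RNASE2 (0.63 ± 0.09) rose, and CEACAM6 (-2.82 ± 0.30), LYZ (-1.32 ± 0.07) and CTSG (-0.78 ± 0.18) fell. CEACAM6 was -3.43 in THP-1 cells without BRM014 72 h replicate 2, and in MV-4-11 cells -5.75 without 72 h replicate 1 and -4.04 without replicate 2.

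As the mean of the 3 lines, 2 of 9 granule genes rose and 7 fell at 24 h, where 28.9% and 27.1% of all genes did, with a median log2 fold change of -0.74 against 0.03 over all genes. At 72 h 4 rose and 4 fell, against 34.9% and 30.4% of all genes, with a median of 0.23 against 0.07. These means hide differences between lines. The effect of BRM014 differed between lines in 6 of 9 genes at 24 h and 7 of 9 at 72 h, where 43.5% and 52.9% of all genes differed. Such a difference may be one of size alone, as for MPO, which fell in all 3 lines at both times. Of the 24 h calls, that of ELANE (0.64, adjusted p = 0.0366) was lost with DESeq2 (adjusted p = 0.0862), with a replicate block (adjusted p = 0.0723) and without any one of 6 libraries. These were MOLM-13 BRM014 24 h replicate 1 (0.39), MOLM-13 DMSO replicate 1 (0.49), MV-4-11 BRM014 24 h replicate 1 (0.30), MV-4-11 DMSO replicate 1 (0.60), THP-1 BRM014 24 h replicate 1 (0.49) and THP-1 DMSO replicate 2 (0.54). The 24 h call of AZU1 (-0.59, adjusted p = 0.0211) was lost without MOLM-13 BRM014 24 h replicate 2 (-0.50), MOLM-13 DMSO replicate 1 (-0.52), MV-4-11 DMSO replicate 2 (-0.45), THP-1 BRM014 24 h replicate 2 (-0.53) or THP-1 DMSO replicate 2 (-0.39). Its 72 h call (0.63, adjusted p = 0.0117) was lost without THP-1 BRM014 72 h replicate 2 (0.37). A difference between lines at 24 h was not called for PRTN3 (adjusted p = 0.103), AZU1 (adjusted p = 0.0677) or ELANE (adjusted p = 0.596). It was called for PRTN3 without MOLM-13 BRM014 24 h replicate 1 (adjusted p = 0.0381) or MV-4-11 BRM014 24 h replicate 1 (adjusted p = 0.000491). For AZU1 it was called without MOLM-13 BRM014 24 h replicate 2 (adjusted p = 0.043), MV-4-11 DMSO replicate 1 (adjusted p = 0.0427) or THP-1 DMSO replicate 1 (adjusted p = 0.0253). As the mean of the lines PRTN3 was -1.74 at 24 h, and -2.65 without MV-4-11 BRM014 24 h replicate 2.

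In THP-1 cells PMA and DB2313 gave other patterns than BRM014. All 3 treatments were compared with the same 2 DMSO libraries, so their fold changes share these controls and are given side by side. PMA raised 3 of the 10 genes and lowered 6, where 18.9% and 17.1% of all genes rose and fell. DB2313 raised 4 and lowered 5, where 35.9% and 29.5% of all genes did.

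With PMA the monocytic products rose. LYZ stood at 8300.5 and 8432 CPM in PMA cells, against 1934 and 1755 CPM in DMSO cells (2.27 ± 0.07, adjusted p = 2.92e-15), and was the 4th highest of all gene symbols by CPM. S100A8 stood at 483 and 577 CPM in PMA cells, against 44.5 and 34.9 CPM in DMSO cells (3.83 ± 0.15, adjusted p = 1.12e-13). S100A9 stood at 1108 and 1465 CPM in PMA cells, against 127 and 103 CPM in DMSO cells (3.58 ± 0.15, adjusted p = 1.47e-13). For all 3 the PMA libraries lay far above DMSO. Transcripts of MPO and 3 of the 4 related proteases fell instead. CTSG stood at 307 and 592 CPM in PMA cells, against 1904 and 2047 CPM in DMSO cells (-2.04 ± 0.18, adjusted p = 2.23e-08). MPO stood at 1.9997 and 4.69 CPM in PMA cells, against 12.6 and 11.2 CPM in DMSO cells (-1.75 ± 0.23, adjusted p = 4.07e-06), and its value without PMA replicate 2 was -2.50. ELANE, at 5.51 and 10.2 CPM in PMA cells against 39.7 and 24.6 CPM in DMSO cells, also lay below DMSO (-1.94 ± 0.52, adjusted p = 0.00577). That call was lost without DMSO replicate 1 (-1.57, adjusted p = 0.0598) or PMA replicate 1 (-1.53, adjusted p = 0.0642). PRTN3, at 3.51 and 8.54 CPM in PMA cells against 22.2 and 18.4 CPM in DMSO cells, was called (-1.67 ± 0.63, adjusted p = 0.0436). It was not called with DESeq2 (adjusted p = 0.0947) or without PMA replicate 1 (-1.13), DMSO replicate 1 (-1.54) or DMSO replicate 2 (-1.80), and was -2.46 without PMA replicate 2. CEACAM6 (-1.25 ± 0.16, adjusted p = 9.84e-06) and RNASE2 (-0.46 ± 0.09, adjusted p = 0.000548) also fell. AZU1 was not called (-0.79 ± 0.36, adjusted p = 0.0969), but was without DMSO replicate 1 (-1.21, adjusted p = 0.0256) or PMA replicate 2 (-1.31, adjusted p = 0.0145). The summed CPM of the 8 monocyte and macrophage markers was 2497 to 3104 in PMA cells against 559 to 567 in DMSO cells. Of the 8, 7 were higher and 0 lower, against 18.9% and 17.1% of all genes, and FCN1 had no reads.

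With DB2313, CEACAM6 and MPO rose. CEACAM6 stood at 378 and 402 CPM in DB2313 cells, against 36.0 and 29.4 CPM in DMSO cells (3.51 ± 0.15, adjusted p = 2.54e-12), the highest level of this gene in any of the 11 groups. MPO stood at 39.3 and 38.6 CPM in DB2313 cells, against 12.6 and 11.2 CPM in DMSO cells (1.64 ± 0.18, adjusted p = 1.2e-07). S100A9 was higher as well, at 262 and 195 CPM in DB2313 cells against 127 and 103 CPM in DMSO cells (0.92 ± 0.13, adjusted p = 5.23e-06). S100A8 was higher by 0.49 ± 0.15 (adjusted p = 0.00613), a call lost without DMSO replicate 2 (0.33, adjusted p = 0.119) or DB2313 replicate 1 (0.22, adjusted p = 0.224). LYZ fell to 60.9 and 60.7 CPM in DB2313 cells, against 1934 and 1755 CPM in DMSO cells (-4.997 ± 0.08, adjusted p = 1.05e-19), its lowest level in any group. CTSG fell to 489.9 and 411 CPM in DB2313 cells, against 1904 and 2047 CPM in DMSO cells (-2.21 ± 0.18, adjusted p = 2.05e-09). RNASE2 also fell (-0.69 ± 0.09, adjusted p = 1.88e-06), as did AZU1 (-1.41 ± 0.37, adjusted p = 0.00222), a call lost without DMSO replicate 2 (-0.80, adjusted p = 0.0943). PRTN3 fell by -1.57 ± 0.61 (adjusted p = 0.0297), a call lost with DESeq2 (adjusted p = 0.0805) and without DMSO replicate 1 (-1.44), DMSO replicate 2 (-1.70), DB2313 replicate 1 (-1.62) or DB2313 replicate 2 (-1.52). ELANE was not called (-0.47 ± 0.45, adjusted p = 0.376). The summed CPM of the 8 monocyte and macrophage markers was 1198 to 1200.4 in DB2313 cells, against 559 to 567 in DMSO cells. Of the 8, 4 were higher and 2 lower, against 35.9% and 29.5% of all genes, and FCN1 had no reads.

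**Figure D4:**
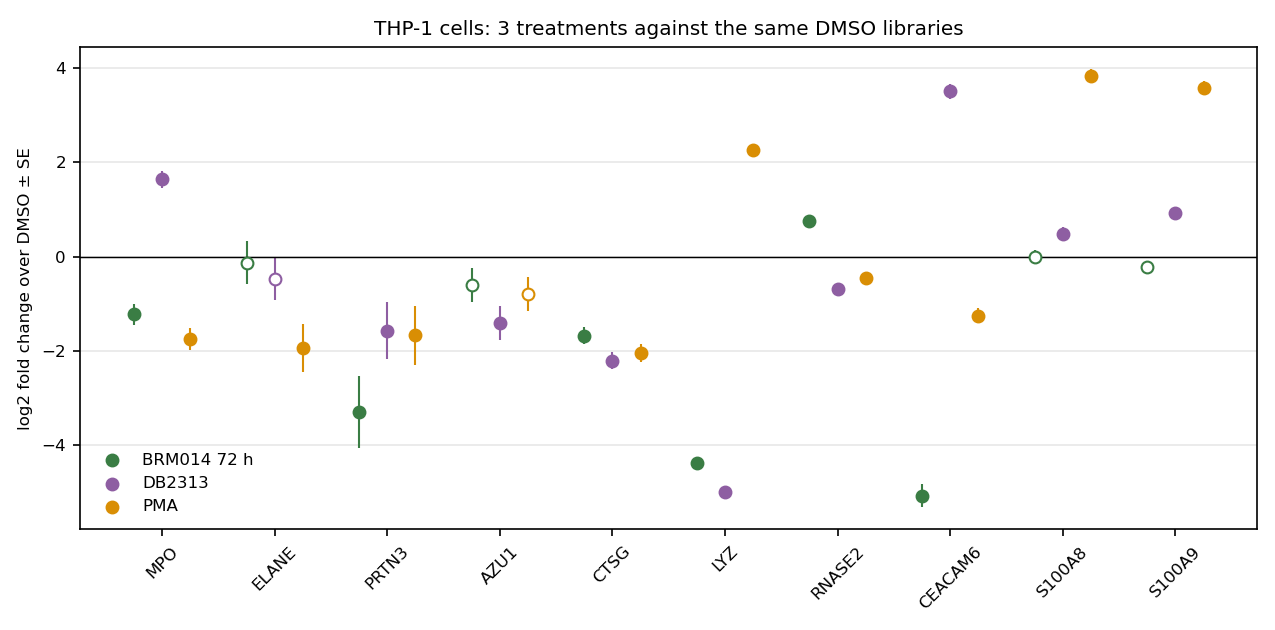
Log2 fold change ± SE of each granule gene in THP-1 cells for BRM014 at 72 h, DB2313 and PMA, each over the same 2 DMSO libraries, with filled points called and open points not called. CTSG fell with all 3 (-1.68, -2.21 and -2.04), LYZ fell with BRM014 and DB2313 (-4.38 and -4.997) and rose with PMA (2.27), and CEACAM6 fell with BRM014 (-5.07) and rose with DB2313 (3.51).

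Set directly against DB2313, also given for 72 h but at another dose, BRM014 left 3 of 10 genes higher and 4 lower in THP-1 cells, where 30.4% and 30.9% of all genes were. CEACAM6 was the most different, with a log2 fold change of -8.58 ± 0.23 (adjusted p = 4.48e-15) and -9.19 without BRM014 72 h replicate 2. MPO (-2.87 ± 0.20, adjusted p = 1.75e-10) and S100A9 (-1.15 ± 0.14, adjusted p = 3.78e-07) were lower with BRM014, and RNASE2 (1.44 ± 0.09, adjusted p = 5.98e-11) and LYZ (0.62 ± 0.07, adjusted p = 2.43e-07) were higher. CTSG (0.53 ± 0.18, adjusted p = 0.0143) was not called without BRM014 72 h replicate 1 (0.50) or DB2313 replicate 2 (0.39), nor with THP-1 libraries alone in the fit (adjusted p = 0.07). S100A8 (-0.49 ± 0.15, adjusted p = 0.00645) was not called without BRM014 72 h replicate 1 (-0.42) or DB2313 replicate 1 (-0.22). PRTN3 was not called (-1.73 ± 0.84, adjusted p = 0.0834), but was with a replicate block (adjusted p = 0.0413) and with THP-1 libraries alone in the fit (-1.75, adjusted p = 0.00221). AZU1 was not called (0.80 ± 0.36, adjusted p = 0.0629), but was without BRM014 72 h replicate 1 (1.30, adjusted p = 0.00574).

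The libraries of a group agreed less for AZU1, PRTN3 and ELANE than for the other granule genes. Taking groups with a mean of at least 50 reads, the higher library exceeded the lower by more than 1.5 times in 6 of 11 groups for ELANE, 5 of 11 for AZU1 and 4 of 9 for PRTN3. The ratio for PRTN3 reached 12.1 in MV-4-11 cells at 24 h of BRM014, that for ELANE 3.04 in the same group, and that for AZU1 2.40 in THP-1 cells at 72 h. MPO and CTSG passed 1.5 only in the PMA group, and LYZ, RNASE2, CEACAM6, S100A8 and S100A9 in none. Among all genes 1.34% to 3.41% passed 1.5, and 12.03% in the PMA group, whose 2 libraries agreed least. The transcripts of ELANE (66.8%), PRTN3 (66.4%) and AZU1 (63.4%) are rich in G and C, and of genes at 63% or more 1.77% to 6.16% passed 1.5, and 25.7% in the PMA group. CFD, next to ELANE, had a ratio of 4.47 in MOLM-13 cells at 24 h of BRM014, and of 1.00 to 1.39 in the other groups measured. In that MOLM-13 group the nearby genes PLPPR3, PTBP1 and MED16 had ratios of 1.17, 1.08 and 1.08. The part of base composition in this spread was not tested.

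**Figure D5:**
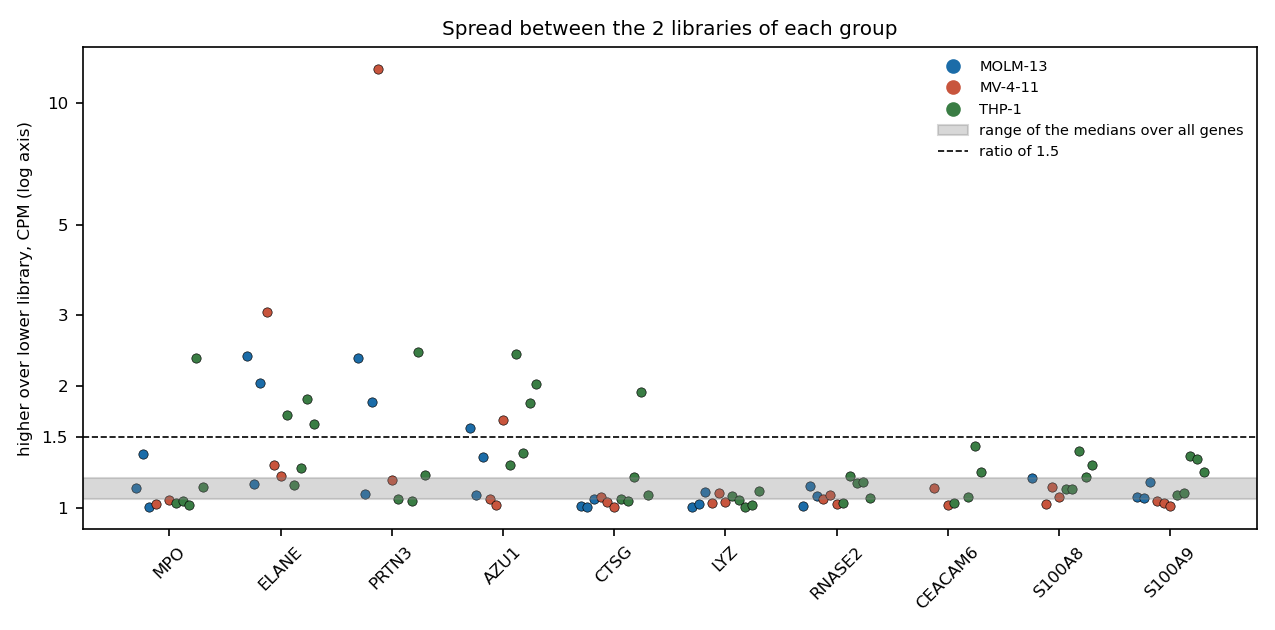
Ratio of the higher to the lower library in CPM, on a log axis, for each granule gene in each group where the 2 libraries averaged at least 50 reads, 1 point per group and 1 colour per line, with a dashed line at 1.5 and a grey band over the range of the groups' medians for all genes. ELANE, AZU1 and PRTN3 passed 1.5 in 6, 5 and 4 groups, and LYZ in none.

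Of 17 other genes of primary granules, 14 were tested. As the mean of the lines 4 rose and 7 fell at 24 h (median -0.38), where 28.9% and 27.1% of all genes did, and 5 rose and 5 fell at 72 h (median -0.40), near the 34.9% and 30.4% of all genes. The falls at 72 h were led by BPI, which encodes a protein that binds endotoxin (-3.41, adjusted p = 4.88e-09), and LPO (-2.75, adjusted p = 1.41e-07). The rises were led by the lysosomal protease CTSD (2.61, adjusted p = 1.38e-19) and by CD68 (1.91, adjusted p = 1.9e-19), which is also among the monocyte and macrophage markers. DEFA4, a defensin gene, had no reads in MV-4-11 cells after 72 h of BRM014, against 6.38 ± 1.55 CPM in DMSO (SD, n = 2). With PMA 7 rose and 2 fell, against 18.9% and 17.1% of all genes, and with DB2313 8 rose and 3 fell, against 35.9% and 29.5%. PRSS57, a further granule protease, was higher with DB2313 in THP-1 cells (3.98, adjusted p = 2.02e-11) and with BRM014 at 72 h in THP-1 cells (3.18, adjusted p = 4.69e-09), and lower with BRM014 at 72 h in MOLM-13 (-1.20, adjusted p = 9.72e-10) and MV-4-11 cells (-2.48, adjusted p = 1.16e-13).

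Among 18 tested genes of specific and tertiary granules, 8 rose and 3 fell at 72 h as the mean of the lines, against 34.9% and 30.4% of all genes, with a median of 0.73, or 0.31 with the 5 genes that had a group at 0 set at their bounds. HP, the haptoglobin gene, rose most (7.45, adjusted p = 9.71e-19), to 681 ± 27.9 CPM in MOLM-13 cells against 1.74 ± 0.0561 CPM in DMSO (SD, n = 2 each). CAMP, which encodes the antimicrobial peptide cathelicidin, followed (4.58, adjusted p = 1.12e-10). CYBB, a subunit of the phagocyte oxidase, fell (-2.74, adjusted p = 1.27e-15). Of 23 tested genes that pack, activate or inhibit the granule proteases, 11 rose and 7 fell at 72 h (median 0.32), against the same 34.9% and 30.4% of all genes. SRGN, the proteoglycan to which granule proteases bind, rose in all 3 lines at 72 h (2.20 in MOLM-13, 0.43 in MV-4-11 and 1.67 in THP-1 cells) and fell with DB2313 (-1.67) and PMA (-1.01). CTSC, which activates the granule serine proteases, rose with DB2313 (2.27, adjusted p = 9.04e-16) and fell with BRM014 at 72 h in THP-1 cells (-0.37, adjusted p = 7.83e-05).

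Of 8 other S100 genes tested, 3 rose and 3 fell at 72 h as the mean of the lines (median -0.31, or -0.38 with the 2 genes that had a group at 0 at their bounds), near the 34.9% and 30.4% of all genes, which are also the shares for the next 2 families. S100A11 rose in all 3 lines, by 2.35 in MOLM-13, 3.10 in MV-4-11 and 2.20 in THP-1 cells. S100A12, between S100A8 and S100A9 on chromosome 1, was scarce and was higher in PMA cells, at 26.2 ± 0.785 CPM against 0.915 ± 0.0346 CPM in DMSO (SD, n = 2 each). Of 4 CEACAM genes tested beside CEACAM6, 2 rose and 0 fell at 72 h (median 1.01, or 1.74 with bounds), led by CEACAM19 (1.91, adjusted p = 4.28e-09). Of 6 other RNase A genes tested, 0 rose and 2 fell, namely RNASE6 (-5.38, adjusted p = 3.54e-12) and RNASE3 (-2.54, adjusted p = 2.85e-14), with a list median of -1.89, or -0.79 with bounds.

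Of 18 tested transcription factors known to act on granule genes, 9 rose and 7 fell at 72 h as the mean of the lines (median 0.41), against 34.9% and 30.4% of all genes. SPI1, which encodes PU.1, fell in all 3 lines at 72 h, by -0.87 ± 0.11 in MOLM-13, -0.89 ± 0.11 in MV-4-11 and -2.59 ± 0.12 in THP-1 cells. It was not called with DB2313 (-0.17 ± 0.11, adjusted p = 0.198), whose target is the PU.1 protein, and rose with PMA (0.48 ± 0.11, adjusted p = 0.00233). CEBPE, a factor of late granulocyte maturation, fell at 24 h with log2 fold changes of -2.93 ± 0.35 in MOLM-13, -2.49 ± 0.21 in MV-4-11 and -2.80 ± 0.29 in THP-1 cells, and rose with DB2313 (1.62 ± 0.22, adjusted p = 2.43e-06). IRF8, a factor of monocyte and dendritic cell fate, fell at 72 h with log2 fold changes of -3.81 ± 0.10 in MOLM-13, -5.61 ± 0.12 in MV-4-11 and -2.04 ± 0.09 in THP-1 cells, and fell with DB2313 (-2.93 ± 0.09). CEBPA, needed for the first steps of the granulocyte line, rose at 72 h in MOLM-13 (1.03 ± 0.10) and MV-4-11 cells (1.03 ± 0.10) and was not called in THP-1 cells (0.06 ± 0.10, adjusted p = 0.629). MYB, known to act on MPO and ELANE, was lower at 72 h in THP-1 cells (-0.85 ± 0.07) and with DB2313 (-3.45 ± 0.08). Values of MYB in MOLM-13 and MV-4-11 cells, and of CEBPE at 72 h, are not reported here.

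Markers of myeloid blasts were lower in sum at 72 h of BRM014, as MPO, PRTN3 and CTSG were. Summed CPM of 7 of them was 733 in both MOLM-13 libraries at 72 h, against 1110.4 to 1119 in DMSO. It was 686 to 713 in MV-4-11 cells at 72 h against 905 to 912 in DMSO. In THP-1 cells it was 480.1 to 523 at 72 h against 918 to 927 in DMSO. With PMA the THP-1 sum was 1158 to 1279, where MPO, PRTN3 and CTSG fell. With DB2313 it was 906 to 920, where PRTN3 and CTSG fell and MPO rose. As the mean of the lines 5 of the 6 tested fell and 0 rose (median -1.13), against 30.4% and 34.9% of all genes, and CD34 had no reads in 9 of the 11 groups. Markers of erythroid and megakaryocytic cells summed to at most 7.30 CPM outside the DB2313 group, where they summed to 140.3 to 152 CPM with all 3 globin genes tested for (HBA1, HBA2 and HBB) at 0. Markers of epithelial cells and fibroblasts summed to at most 15.9 CPM, except in THP-1 cells at 72 h of BRM014 (151 to 155) and with DB2313 (70.0 to 76.1), with COL3A1 at 0 in both. Markers of mature neutrophils, which share CAMP and LTF with the specific granule list, summed to 382 to 383 CPM in MOLM-13 cells at 72 h against 191 to 198 in DMSO, and to 66.4 to 69.4 CPM in MV-4-11 cells at 72 h against 256 to 259 in DMSO. At 72 h 30.3% of all genes rose and 29.4% fell in MOLM-13 cells, and 28.4% and 26.1% in MV-4-11 cells. In both lines 3 of the 6 tested neutrophil markers rose and 2 fell, and MME, ALPL, CD177 and LTF had no reads at 72 h. In THP-1 cells they summed to 275 to 284 CPM with DB2313 against 179.7 to 192 in DMSO, with ALPL at 0. Lymphoid markers summed to 2.57 to 2.98 CPM in MOLM-13 cells at 72 h against 48.7 to 56.7 in DMSO, with CD3D, CD3E and MS4A1 at 0. The part of these markers in the granule gene values was not tested.

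The genes whose mean log2 CPM over the 11 groups was most like that of a granule gene are given by Pearson's r, as a description over groups that share lines and controls. For MPO they were SLC14A2 (0.93), CAMKV (0.92) and NEDD9 (0.91), and for ELANE MLLT1 (0.94), KLHL17 (0.94) and ZNF266 (0.93). NAIP (0.95), TNFRSF9 (0.92) and ACTR2 (0.92) were nearest to LYZ. S100A8 (0.98), RHOU (0.91) and RRAGD (0.88) were nearest to S100A9. MPO itself was closest, among the other 9 granule genes, to PRTN3 (0.75), and its r was 0.29 with its fellow primary granule gene ELANE and -0.48 with S100A9.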

How the data were processed

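Polyadenylated RNA of 22 libraries was sequenced, and the authors deposited whole-number read counts per gene symbol for each library. HISAT2 2.1.0, HTSeq, DESeq2 and the hg38 build are named in the submitters' processing notes, without their roles. The annotation and the strand setting of the counting are not given in the sources used here. Reads in no gene (12.03% to 19.2% of each table's total) and ambiguous reads (3.04% to 3.82%) entered neither library sizes nor tests.

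The counts were tested with edgeR 4.0.16 in R 4.3.3 by the quasi-likelihood test, with 1 coefficient per group over all 22 libraries, TMM scaling and filterByExpr at a minimum count of 10, which kept 16794 genes. The SE was taken as the absolute log2 fold change over the root of F. Effects were compared between lines by an F test of 2 contrasts. Simulated data were used only for the test of BRM014 at 72 h against DMSO in THP-1 cells, not for that F test. DESeq2 1.42.0, other scalings, no filter, fewer groups, a replicate block and leaving out each library were the alternatives. Levels are CPM over gene reads, and patterns across groups used log2 CPM (prior count 2). Positions are from GENCODE v29 (GRCh38), which held 25815 of the 28063 symbols.

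The members and all gene lists were chosen with earlier results of these data known. Named genes were all 10 members, genes within 100 kb of one, listed regulators, up to 2 called genes of largest rise and 2 of largest fall per list, and the 3 genes of most alike pattern for MPO, ELANE, LYZ and S100A9. SRGN, CTSC, DEFA4, PRSS57, S100A11, TLR4 and CD36 were also named for values already seen. Intervals and floors cover counting error only.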

Additional observations from a re-analysis of the deposited data

Results flagged for a closer look

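The effect of BRM014 on 9 granule genes was compared between the 3 lines by a test of the difference itself (edgeR's quasi-likelihood F test, adjusted over 16794 genes). At 24 h the lines differed in MPO (adjusted p = 9.15e-07), CTSG (adjusted p = 0.00176), LYZ (adjusted p = 5.25e-12), RNASE2 (adjusted p = 6.09e-05), S100A8 (adjusted p = 1.24e-09) and S100A9 (adjusted p = 1.76e-10). At 72 h they differed in MPO (adjusted p = 2.59e-09), ELANE (adjusted p = 0.00305), AZU1 (adjusted p = 0.00145), LYZ (adjusted p = 1.62e-17), RNASE2 (adjusted p = 1.87e-12), S100A8 (adjusted p = 2.91e-10) and S100A9 (adjusted p = 5.47e-12). MPO fell in every line and differed in size, while at 72 h LYZ rose in MOLM-13 cells (0.74) and fell in MV-4-11 (-0.40) and THP-1 cells (-4.38). RNASE2 at 72 h rose in MOLM-13 (1.58) and THP-1 cells (0.75) and fell in MV-4-11 cells (-1.46). Differences of this kind were common, being called in 43.5% of all genes at 24 h and 52.9% at 72 h.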

How the results depend on the processing

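Of 1037 values under another setting, 978 kept their direction and call, 37 gained a call, 10 lost one and 12 changed sign. Of 960 values with 1 library left out, 889 kept both, 12 gained a call, 45 lost one and 14 changed sign. No value that changed sign had been called. In THP-1 cells S100A9 at 24 h (0.02) was -0.001 with RLE scaling and with DESeq2, -0.012 with no filter, -0.009 without the PMA and DB2313 groups and -0.025 with the line's own libraries. S100A8 at 72 h was 0.002 with RLE scaling, 0.083 with library size alone, 0.001 with DESeq2 and 0.003 with a replicate block. MPO at 72 h against 24 h was 0.018 with RLE scaling and DESeq2 and 0.032 with library size alone. With 1 library left out at a time, values that crossed 0 ranged as follows. For BRM014 at 24 h, AZU1 in MOLM-13 cells ran from -0.11 to 0.55, ELANE and PRTN3 in MV-4-11 cells from -0.624 to 0.98 and from -3.298 to 0.298, and S100A8 and S100A9 in THP-1 cells from -0.299 to 0.036 and from -0.112 to 0.164. At 72 h in THP-1 cells, ELANE ran from -0.434 to 0.24, AZU1 from -1.362 to 0.003 and S100A8 from -0.164 to 0.171. At 72 h against 24 h, PRTN3 in MOLM-13 cells ran from -0.751 to 0.487, and in THP-1 cells MPO ran from -0.038 to 0.02 and AZU1 from -0.419 to 0.839. With no filter 8 members were called in that comparison against 4, where 5656 genes were called against 5490, and more members were called in 13 of the 17 comparisons. Among the added calls against DMSO were PRTN3 in MV-4-11 cells at 24 h (-0.575, adjusted p = 2.15e-05) and AZU1 in THP-1 cells at 72 h (-0.629, adjusted p = 3.95e-12). The cause of the added calls was not tested. The limits are 2 libraries per group, the wide spread of ELANE, PRTN3 and AZU1, and the few reads of CEACAM6 and PRTN3 at 72 h.

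Libraries of different groups share replicate numbers. Within each line, differences in log2 CPM between replicates 1 and 2 correlated between groups at -0.117 to 0.0852 over all genes tested. No pairing was seen. Genes of few reads counted as much as others, so their scatter may hide a pairing. With a replicate block 8 members were called at 24 h, against 9 without it, and 8 at 72 h, as without it, as the mean of the lines. Over all genes 9189 were called at 24 h with the block, against 9403, and 10854 at 72 h, against 10962.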
